A study of Mus musculus with 4 samples.

Results

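Genes of glycolysis and of the response to low oxygen were followed through the cells of chemically induced mouse colon tumours. The set held 34 of the 31053 genes in the count table, taken by symbol from a fixed list: 4 transporters, 14 enzymes of glycolysis, 3 regulators of glycolytic flux, 3 genes of oxygen sensing and 10 other hypoxia-response genes. Every one of the 34 was found. The symbol Aldoa stood on 2 rows of the table, and the row with 56930 UMIs (unique molecules) was used.

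Glycolysis splits glucose into pyruvate, and lactate dehydrogenase turns pyruvate into lactate, which monocarboxylate transporters carry out of the cell. When oxygen is scarce, prolyl hydroxylases no longer mark the transcription factor subunit HIF-1α for destruction. HIF-1α then binds short hypoxia-response elements and drives many glucose transporters, glycolytic enzymes and survival genes. Activated myeloid cells and tumour epithelium are both known for strong glycolysis, and inflammatory signals can drive HIF-1α at normal oxygen too.

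The tumours were colon polyps of female C57BL/6 mice. Azoxymethane, a carcinogen, was injected at 12.5 mg/kg, 3 cycles of 5 days with dextran sulphate sodium in the water followed (2.5%, and 2% in the last) to cause colitis, and polyps were taken 30 days after the last. The labels list 4 samples of 1 each, namely sorted CD45+ (immune) and CD45- (non-immune) cells from Egfr fl/fl control mice and from EgfrΔMYL mice, in which Egfr is deleted in the myeloid lineage. The promoter that drives the deletion, the ages and the number of animals behind a sample are not given in the sources used here. All counts came in 1 matrix whose barcodes carry 4 number endings, called libraries 1 to 4 below, and no ending could be tied to a sample, so genotypes and sorts were not compared.

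The promoters of 32 of the 34 genes were found in the RefSeq table for GRCm38.p6, the assembly behind mm10. The core of the hypoxia-response element was searched as ACGTG or GCGTG, or their reverse complements CACGT and CACGC, in the 250 bases before the start. Where the table listed several starts of a gene, only the most upstream was searched. It was present in 25 of the 32 genes (78.1%), against 38.6% of all 27025 genes in the table. Among genes with at least 11 CG pairs in that window, the lower quartile of the members, the share was 65.2%. The members were not filtered by CG pairs, here or for the ACGTG form below, so these shares come from unlike sets. The core is short and holds a CG pair, and a match is a description of the letters alone. The ACGTG form was in 17 members (53.1%), in 16.5% of all genes and in 24.5% of genes with at least 11 CG pairs. Below are the promoters of 3 genes that were at least 2-fold higher both in C1q-low than in C1q-positive myeloid cells and in regenerative than in Wnt-active epithelial cells. In regenerative against absorptive epithelial cells, Slc2a1 was also past 2-fold higher and Egln3 was not. Slc16a1 had a lower level in regenerative than in absorptive cells, by less than 2-fold (31.7 against 56.3 CPM). Hk1, Pfkp, Eno1, Hif1a and Ankrd37 met the same rule and are not printed. Hk1 had no core in the window searched, that of the more upstream of its 2 listed starts. The promoter of Hk2, which was at least 2-fold higher in activated than in granule-rich neutrophils, is also given. Capitals mark the core, and each is written 5′ to 3′ on the strand of its gene. They lie at chr4:119108495-119108710 (plus strand, ending 1 base before the annotated start of Slc2a1), chr3:104638414-104638663 (plus strand, Slc16a1), chr12:54203875-54204124 (minus strand, Egln3) and chr6:82774455-82774704 (minus strand, Hk2). In the GENCODE annotation of the same assembly the genes lie at chr4:119108711-119137983, chr3:104638668-104658462, chr12:54178981-54203860 and chr6:82725025-82774454.
Slc2a1: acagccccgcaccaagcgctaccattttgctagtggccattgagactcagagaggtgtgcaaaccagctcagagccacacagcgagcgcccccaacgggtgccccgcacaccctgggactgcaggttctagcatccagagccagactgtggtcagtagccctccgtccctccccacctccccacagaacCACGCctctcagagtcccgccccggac
Slc16a1: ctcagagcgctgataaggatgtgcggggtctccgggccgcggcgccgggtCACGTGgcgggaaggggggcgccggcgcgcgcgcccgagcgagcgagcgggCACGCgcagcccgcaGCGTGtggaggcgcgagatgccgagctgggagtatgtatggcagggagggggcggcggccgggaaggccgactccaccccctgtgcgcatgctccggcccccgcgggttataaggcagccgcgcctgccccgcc
Egln3: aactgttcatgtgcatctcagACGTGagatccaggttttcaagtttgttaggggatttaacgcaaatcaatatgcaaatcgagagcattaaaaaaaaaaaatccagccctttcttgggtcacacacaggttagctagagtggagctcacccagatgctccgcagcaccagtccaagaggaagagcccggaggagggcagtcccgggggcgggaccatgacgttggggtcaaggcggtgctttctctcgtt
Hk2: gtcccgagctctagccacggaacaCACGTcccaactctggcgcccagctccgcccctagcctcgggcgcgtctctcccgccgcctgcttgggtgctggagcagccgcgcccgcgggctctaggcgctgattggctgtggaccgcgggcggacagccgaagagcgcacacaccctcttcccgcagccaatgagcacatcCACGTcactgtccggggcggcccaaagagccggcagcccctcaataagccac
The Slc16a1 stretch holds the palindrome CACGTG, read as a core on both strands, with 2 further cores nearer the start. The 2 cores of Hk2 begin 226 and 52 bases before its start, and the core of Egln3 begins 229 bases before its start. The printed core of Slc2a1 begins 61 bases before its start in the table, and another begins at 36 bases, runs past the end of the printed stretch and is not in capitals.

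Of 18026 barcodes, 14198 passed the filters, and 11586 (81.6%) were placed in 1 of 15 classes by marker genes, 853 of them near the margin of the gate. Classes ranged from 46 basophils to 2620 neutrophils and are called by the name of the marker list that gated them. Libraries 1, 2, 3 and 4 gave 594, 1706, 4516 and 7382 kept cells with medians of 4507, 3390.5, 4932.5 and 5177 UMIs, after the loss of 59.0%, 56.3%, 8.75% and 4.45% of their barcodes. Epithelial cells came mostly from libraries 1 and 2, and most myeloid and lymphoid cells from libraries 3 and 4. Between libraries, 48 barcode sequences recurred, 28 of them in kept cells. Levels are CPM, the UMIs of a gene per 1000000 UMIs of the class, with an exact 95% Poisson interval that covers counting error only. With 1 pooled matrix no p-value is given, and levels of different genes are not compared with each other. Eno1 (25351 UMIs) has a near-identical copy, Eno1b (556 UMIs), so its level is uncertain. In the 2612 ungated cells 30 of the 34 genes had a higher CPM than in gated cells, among them Hilpda (264 against 139.7 CPM) and Ero1l (114 against 59.6 CPM). The same count over all genes was not made, so it is not read as a trait of the set. The gated total includes plasma and erythroid cells, whose immunoglobulin and haemoglobin lower the CPM of other genes. Their part in this count was not tested.

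The summed level of the 34 genes spanned more than 10-fold over the classes. It was 7519 CPM in monocyte/macrophage cells, 6861 in neutrophils, 6842 in basophils and 6677 in epithelial cells, against 5527 in T cells, 2716 in B cells, 1119 in plasma cells and 708 in erythroid cells. Plasma cells devote much of their RNA to immunoglobulin and erythroid cells to haemoglobin, which lowers the CPM of every other gene there. Of the 34 genes, 10 had their highest level in neutrophils or monocyte/macrophage cells, 7 in basophils, 5 in epithelial cells and 5 in stromal cells. The interval lay clear of the next class for 5 of 6 in neutrophils, 2 of 4 in monocyte/macrophage cells and 5 of 7 in basophils. It did so for 4 of 5 in epithelial cells and 1 of 5 in stromal cells. The same count over all genes was not made, so none of these is read as a trait of the set.

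**Figure D1:**
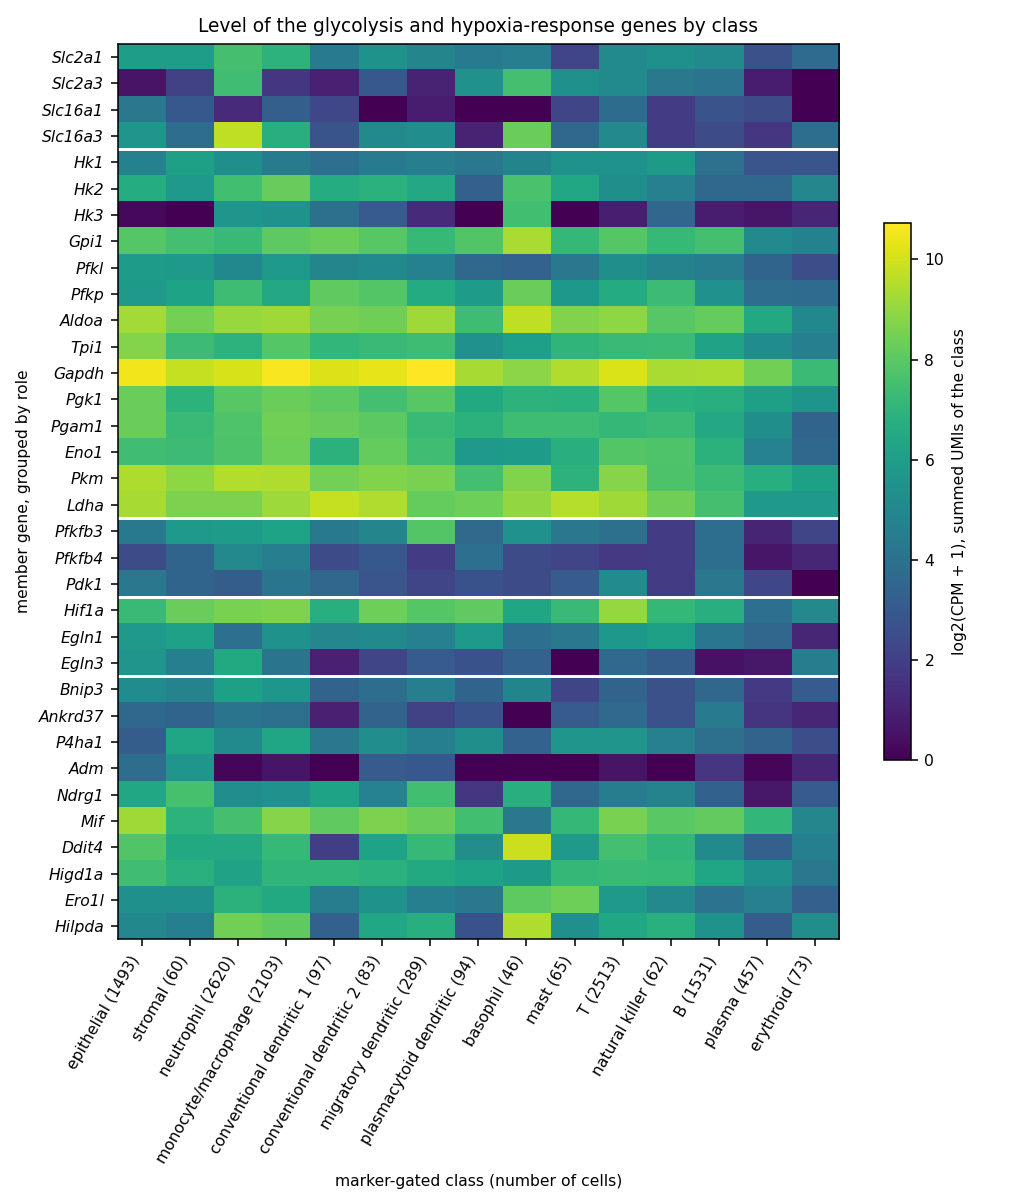
Colour gives the level of each of the 34 genes, as log2(CPM + 1) of summed UMIs, in each of the 15 marker-gated classes, with the number of cells in parentheses and white lines between the roles. Slc16a3 is brightest in neutrophils (831 CPM) and Pfkfb3 in migratory dendritic cells (231 CPM), and plasma and erythroid cells are dark in most rows.

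The transporters differed in the class where each was highest. Slc2a1, the widespread glucose transporter GLUT1, stood at 189 CPM (interval 180.0 to 197.7) in neutrophils and at 122 CPM in monocyte/macrophage cells, with non-overlapping intervals. By library it was 213, 207, 197 and 184 CPM in neutrophils of libraries 1 to 4, and 120.2 and 121.6 CPM in monocyte/macrophage cells of libraries 3 and 4, so every neutrophil value lay above both. Slc2a3, the high-affinity glucose transporter GLUT3, was at 186 CPM (133 to 253) in basophils and 174 CPM (166 to 183) in neutrophils, which overlap, and at only 2.2 CPM in monocyte/macrophage cells. Slc16a3, the lactate exporter MCT4, reached 831 CPM (813 to 850) in neutrophils, with 1006, 1120, 811 and 815 CPM in libraries 1 to 4. Basophils came next for Slc16a3 with 321 CPM (249.5 to 406), and monocyte/macrophage cells had 107 CPM. Slc16a1, the carrier MCT1 that can also import lactate, was highest in epithelial cells at 18.7 CPM, with 12.8 CPM in T cells and 1.4 CPM in neutrophils.

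Enzymes of the pathway divided by isozyme. Hk2, the inducible hexokinase, was highest in monocyte/macrophage cells (304 CPM, 298 to 310; 285 and 313 CPM in libraries 3 and 4). Hk3, a hexokinase of granulocytes and monocytes, was at 177 CPM (125 to 242) in basophils, 48.4 CPM in neutrophils and 0.18 CPM in epithelial cells. Pfkp, a phosphofructokinase isoform, was at 321 CPM in basophils and 276 CPM in conventional dendritic 1 cells, which overlap, while Pfkl, the liver-type isoform, was at 59.6 CPM in epithelial and 54.9 CPM in monocyte/macrophage cells, which also overlap. Gpi1, which converts glucose-6-phosphate to fructose-6-phosphate, was at 655 CPM (552 to 773) in basophils against 315 CPM in conventional dendritic 1 cells. Tpi1, the triose phosphate isomerase, was higher in epithelial cells (427 CPM) than in any other class. Gapdh was highest in migratory dendritic cells (1694.5 CPM) and next in monocyte/macrophage cells (1570.6 CPM). Pkm, the pyruvate kinase of most tissues, was at 724 CPM in neutrophils and 698 CPM in monocyte/macrophage cells, with intervals that overlap. Pgk1, the phosphoglycerate kinase, was at 322 CPM in monocyte/macrophage and 319 CPM in epithelial cells, which overlap. Pgam1, the mutase of the next step, was at 351 and 312 CPM in the same classes. Eno1, the enolase, was at 324 CPM in monocyte/macrophage and 292 CPM in conventional dendritic 2 cells, which overlap. Aldoa, the aldolase, was at 841 CPM in basophils and 599 CPM in epithelial cells. Hk1, the hexokinase of most tissues, was at 67.1 CPM in stromal and 56.4 CPM in natural killer cells, which overlap. Ldha, the lactate dehydrogenase subunit that favours lactate, was at 884.5 CPM in conventional dendritic 1 cells and 749 CPM in mast cells, which overlap, and 646 CPM in epithelial cells.

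Regulators and oxygen sensors followed other patterns. Pfkfb3, which makes the fructose-2,6-bisphosphate that activates phosphofructokinase, was at 231 CPM (213.5 to 250.2) in migratory dendritic cells, against 73.1 CPM in monocyte/macrophage cells. It was 302 and 181 CPM in migratory dendritic cells of libraries 3 and 4, against 66.2 CPM in neutrophils of library 3 and 78.9 CPM in monocyte/macrophage cells of library 4, the next classes there. Pfkfb4, a relative of Pfkfb3, was at 32.2 CPM in neutrophils and 23.1 CPM in monocyte/macrophage cells. Pdk1, a kinase that shuts pyruvate dehydrogenase, was highest in T cells (35.4 CPM). Hif1a was also highest in T cells (522 CPM, 511 to 534), then monocyte/macrophage cells (396 CPM) and neutrophils (374 CPM). Egln3, the hypoxia-induced prolyl hydroxylase PHD3, was at 91.0 CPM (84.9 to 97.3) in neutrophils and 47.2 CPM in epithelial cells, and 0 UMIs were seen in 65 mast cells, which allows up to 11.0 CPM by a limit of 3 counts. Egln1, the main prolyl hydroxylase PHD2, was at 70.4 CPM in stromal and 67.1 CPM in natural killer cells, which overlap.

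Among the other hypoxia-response genes, Hilpda, an inhibitor of lipid breakdown, was at 706.5 CPM (599 to 828) in basophils, 344.5 CPM in neutrophils and 276 CPM in monocyte/macrophage cells. Ddit4, an inhibitor of the growth kinase mTORC1, was at 939 CPM (814 to 1078) in basophils and 222 CPM in epithelial cells. Ndrg1, a differentiation and stress-response gene, was at 191 CPM (145 to 248) in stromal cells and 176 CPM (161 to 193) in migratory dendritic cells. Adm, which encodes the vasodilator peptide adrenomedullin, was at 47.0 CPM in stromal cells and 13.6 CPM in epithelial cells and between 0 and 7.51 CPM in every other class. Bnip3, a mitophagy receptor gene, was highest in neutrophils (67.4 CPM), Mif, a cytokine, in epithelial cells (581.5 CPM) and Higd1a, a mitochondrial protein gene, in epithelial cells (173.0 CPM). P4ha1, a collagen prolyl hydroxylase subunit, was at 80.5 CPM in stromal and 78.0 CPM in monocyte/macrophage cells, Ero1l at 327 CPM in mast and 269.6 CPM in basophils, and Ankrd37 at 21.0 CPM in B cells and 16.7 CPM in neutrophils, each pair with overlapping intervals. Basophil values rest on 46 cells and 215154 UMIs, 36 of them from libraries 1 and 2 (16 and 20). The dissociation-stress list of 12 genes summed to 15170.5 CPM in basophils, above all other classes, which spanned 384 to 11394 CPM. The 8 neutrophil markers summed to 6251 CPM in basophils and 167152 CPM in neutrophils. The activated neutrophil list, which holds cytokine genes, summed to 71660.3 CPM in basophils, above all other classes, and to 21461.5 CPM in neutrophils. The part of these in the basophil values was not tested.

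Regulatory and CD8 T cells differed from each other in the set. The summed level of the 34 genes was 8040 CPM in 524 regulatory T cells (a Foxp3 UMI) and 3702 CPM in 586 CD8 T cells (a Cd8a or Cd8b1 UMI and no marker of another subset). Other T cells are not described here, so no order over all T cells is given. Hif1a stood at 797 CPM (767 to 828) in regulatory and 152.5 CPM (140.8 to 164.9) in CD8 T cells. In library 3 these were 622 and 108 CPM, and in library 4 they were 921 and 241 CPM, so CD8 T cells were lower in both. Ddit4 was at 433 CPM in regulatory and 43.2 CPM in CD8 T cells. Hk2 gave 60.6 CPM in regulatory and 15.4 CPM in CD8 T cells, and Pkm gave 748 and 260.1 CPM. Slc2a1 was at 53.8 and 25.4 CPM in the same order. The 8 proliferation genes summed to 951 CPM in regulatory and 384 CPM in CD8 T cells. Ribosomal genes made up 20.4% of UMIs in regulatory and 35.4% in CD8 T cells. The part of these in the result was not tested.

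The first comparison asked how the set differs between 736 monocyte/macrophage cells with little C1q and 1292 with much. C1q-low cells had at most 5 and C1q-positive cells at least 20 UMIs of C1qa, C1qb and C1qc per 10000. C1q marks resident-type macrophages, and the genes leading the C1q-low cells were Ifitm6, Ly6c2, Plac8, Hp and Chil3, several of which are known from blood monocytes. The set summed to 9631 CPM in C1q-low and 6435 CPM in C1q-positive cells. A gene was counted as higher or lower when the log2 ratio of CPM, with 1 CPM added, passed 2-fold and at least 10 UMIs were seen over both classes, which all 34 members had. By that rule 12 members were higher in C1q-low cells and 0 were lower, where 5.89% of all genes were higher and 19.8% were lower. The median log2 ratio was 0.60 for the members and -0.38 for all genes, and 29 members but 28.8% of all genes were above 0.

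Of 4 transporters, 3 were higher. Slc2a1 was at 217 CPM in C1q-low and 75.9 CPM in C1q-positive cells, a log2 ratio of 1.50 (1.41 to 1.61). In library 3 it was 245 against 71.0 CPM and in library 4 it was 206 against 77.9 CPM, so both libraries showed the same order without overlap. Slc16a3 was at 191 against 65.1 CPM (1.54, 1.45 to 1.66), with 268 against 62.5 CPM in library 3 and 163 against 66.0 CPM in library 4. Slc16a1 was low in both, at 15.1 against 5.64 CPM, and past 2-fold in library 4 but not in library 3 (8.87 against 5.60 CPM). Of 14 enzymes, 3 were higher: Pfkp with 172 against 49.98 CPM (1.76), Eno1 with 493 against 243 CPM (1.02) and Hk1 with 30.2 against 14.6 CPM (1.00). Eno1 and Hk1 lay at the 2-fold line, and Pgk1 (0.92) and Pkm (0.92) just inside it. Gapdh differed little, at 1690.5 against 1494.3 CPM, as did Gpi1 at 276 against 264 CPM.

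Of 3 oxygen-sensing genes, 2 were higher, and of 10 other hypoxia-response genes, 4. Hif1a was at 617 CPM in C1q-low and 288 CPM in C1q-positive cells (1.10, interval 1.04 to 1.15), with 491 against 217 CPM in library 3 and 667 against 320.0 CPM in library 4. Egln3 was at 34.8 against 7.70 CPM (2.04), and its ratio was 3.80 in library 3 and 1.24 in library 4. Ndrg1 was at 88.4 against 18.5 CPM (2.20), Ddit4 at 298 against 70.3 CPM (2.07), Ankrd37, a small ankyrin-repeat gene induced by hypoxia, at 27.9 against 8.36 CPM (1.62), and Ero1l, an oxidase of protein folding, at 155 against 57.0 CPM (1.43). Hilpda was at 393.5 against 216 CPM (0.86). The other 22 members lay between -0.70 and 0.92. Of 5 members below 0, only Mif and Pfkfb4 had intervals clear of 0, at 379 against 448 CPM and 15.8 against 26.3 CPM. Neither was past 2-fold. All 12 had the same sign in libraries 3 and 4, and 11 and 10 of them passed 2-fold there.

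**Figure D2:**
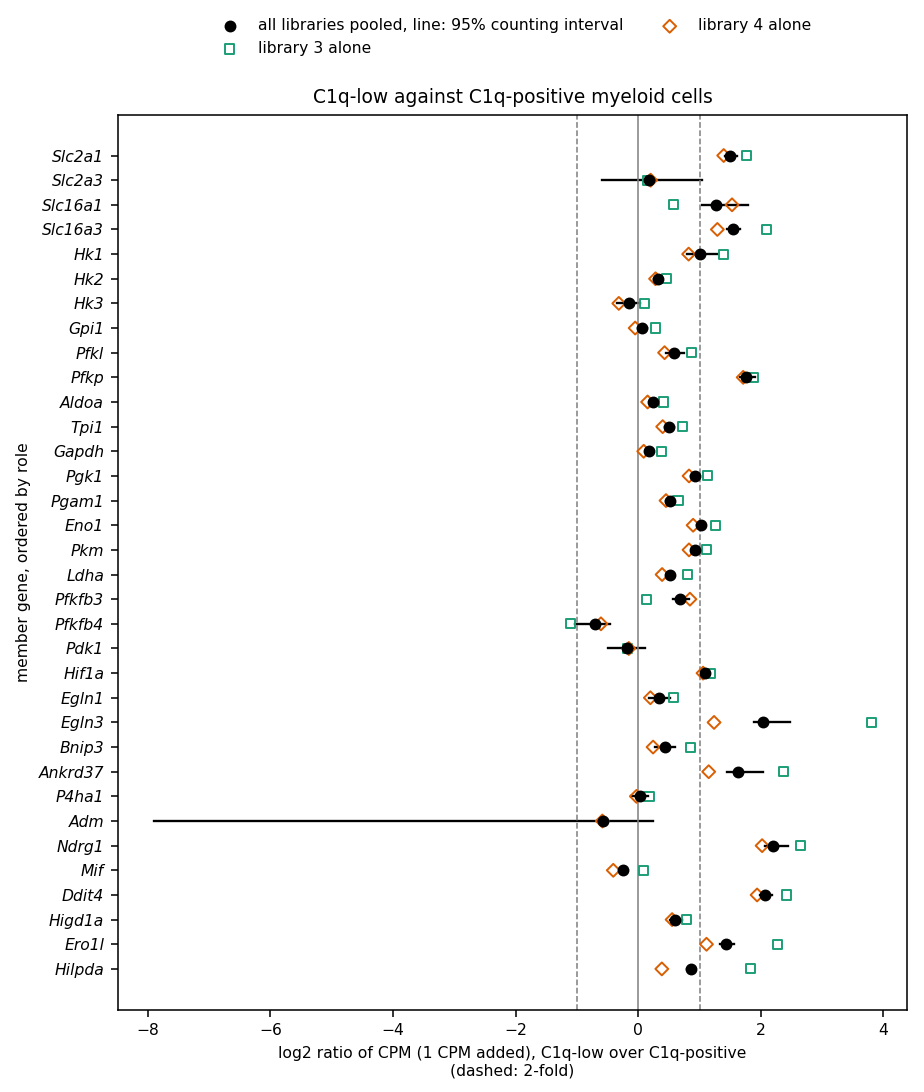
Points are log2 ratios of CPM (1 CPM added) of C1q-low over C1q-positive myeloid cells for the 34 genes, pooled (black, with the 95% counting interval of the ratio without the added CPM) and in libraries 3 and 4 alone where at least 10 UMIs were seen. Dashed lines mark 2-fold, and 12 pooled points lie to the right of the upper one, with none to the left of the lower one.

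C1q-low cells had a median of 11231 UMIs and C1q-positive cells 13579.5. With each cell thinned to 1000 UMIs, 15 members were higher and 0 lower, and 11 of the 12 were still past 2-fold. Slc2a1 then had a log2 ratio of 1.78, Ndrg1 2.68 and Ddit4 2.14, and Hk1 was at 0.91. The 8 general neutrophil markers summed to 434 CPM in C1q-low and 659 CPM in C1q-positive cells, and Slc2a3, which stood at 174 CPM in neutrophils, was at 2.49 and 2.10 CPM. The 10 granule-rich neutrophil markers summed to 494.5 against 26.6 CPM, with Camp and Ly6g at 0 UMIs in C1q-low cells. The activated neutrophil list, some of whose cytokine genes macrophages share, summed to 8203 against 3252 CPM. Proliferation genes were lower in C1q-low cells for 7 of 8, at a sum of 63.4 against 286 CPM. The part of these in the result was not tested.

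Neighbouring pathways did not all go the same way. Beside the counts that follow, 5.89% of all genes were higher in C1q-low cells and 19.8% were lower. Of the other glycolysis list, 12 of 21 genes had enough UMIs, 2 were higher in C1q-low cells and 6 lower. Slc2a6, a lysosomal glucose transporter, was at 35.1 against 8.11 CPM, while Slc2a8 (2.13 against 9.60 CPM), Tigar (2.73 against 10.3 CPM) and Adpgk, an ADP-dependent glucokinase (6.99 against 20.8 CPM), were lower. Of 21 genes of mitochondrial pyruvate use and the citric acid cycle, 0 were higher and 1 was lower, Idh2 at 22.4 against 88.2 CPM. Of 24 other hypoxia-response genes with enough UMIs, 3 were higher and 2 lower. Nos2, the inducible nitric oxide synthase, was at 47.2 against 9.03 CPM and the transcription factor gene Bhlhe40 at 526 against 174 CPM, while Plod1, a collagen lysyl hydroxylase (8.30 against 32.4 CPM), and Car9, a carbonic anhydrase (1.42 against 6.31 CPM), were lower. None of 7 pentose phosphate genes passed 2-fold.

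Neutrophils were split by activation genes such as Il1a, Tnf and Ptgs2 against granule genes such as Ltf, Camp and Ngp, which gave 1313 activated and 549 granule-rich cells. The set as a whole stood at about the same level, 6995 against 7060 CPM. Of 33 members with enough UMIs, 3 were higher in activated cells and 1 was lower, where 16.7% of all genes were higher and 2.72% were lower. The median was 0.25 for the members and 0.35 for all genes. Adm had 0 UMIs in both.

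The 3 higher members were Hk1, Hk2 and Egln3. Hk2 was at 249.9 CPM in activated and 99.2 CPM in granule-rich neutrophils (log2 ratio 1.32, interval 1.13 to 1.54), with 209.9 against 103.6 CPM in library 2, 200.5 against 108.7 CPM in library 3 and 268 against 99.9 CPM in library 4. Every library gave the same order. Hk1 was at 49.6 against 21.6 CPM (1.16), with little difference in library 2 (56.0 against 51.8 CPM). Egln3 was at 119 against 46.65 CPM (1.33) and higher in activated cells of all 3 libraries, and past 2-fold in libraries 2 and 4. Gpi1 was lower in activated cells, at 107 against 228 CPM (-1.08), and lower in each of the 3 libraries. Hk3 was at 40.4 against 60.2 CPM (-0.56), Slc2a3 at 132 against 245 CPM (-0.88) and Gapdh at 935 against 1360.5 CPM (-0.54), while Mif was at 243 against 123 CPM (0.98). Slc2a1 (193 against 192 CPM) and Hif1a (376 against 374 CPM) barely differed, and Slc16a3 was at 746 against 914 CPM.

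**Figure D3:**
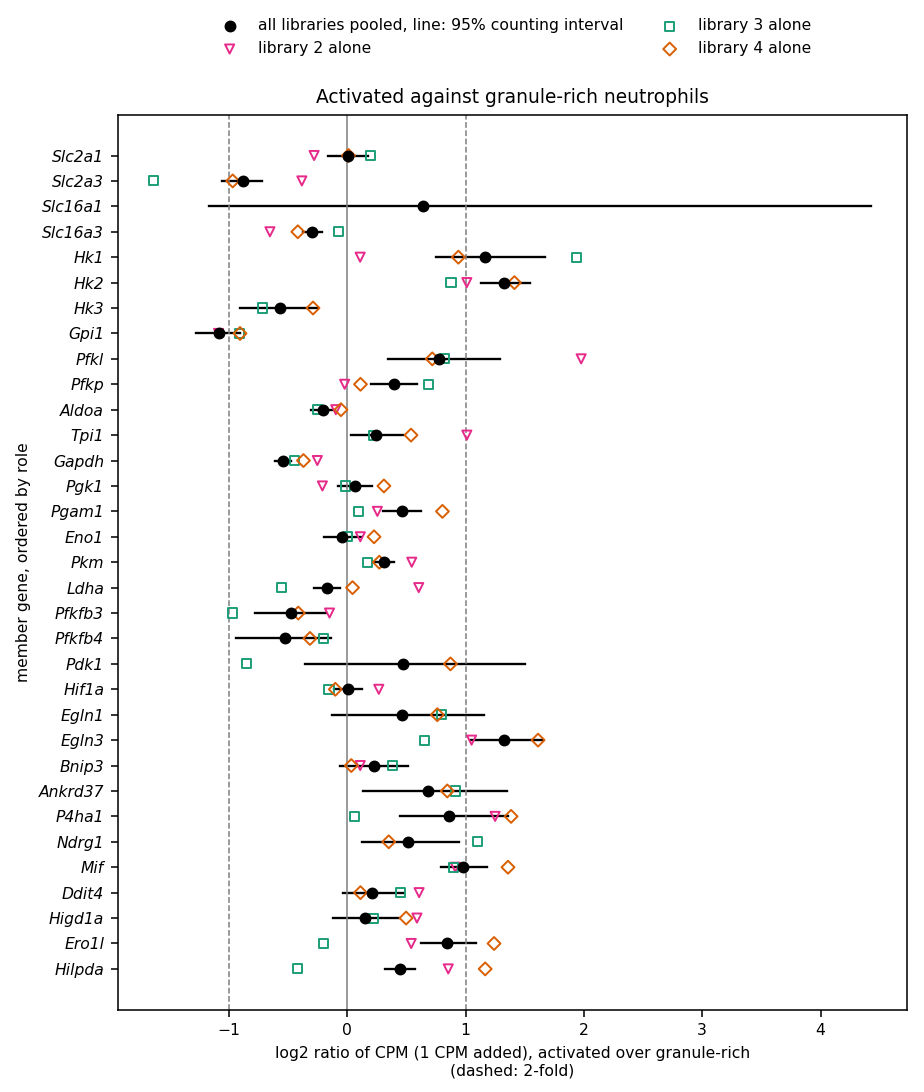
Points are log2 ratios of CPM (1 CPM added) of activated over granule-rich neutrophils for the 33 genes with at least 10 UMIs, pooled (black, with the 95% counting interval) and in libraries 2, 3 and 4 alone. Hk1, Hk2 and Egln3 lie past the upper dashed 2-fold line and Gpi1 past the lower one, and Slc2a1 and Hif1a sit at 0.

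The number of members past 2-fold was not stable in neutrophils, nor was its place against all genes. After thinning to 1000 UMIs, 6 of 32 members were higher and 1 was lower, where 15.8% of all genes were higher and 5.11% lower. Hk2 (1.15) and Egln3 (1.03) were still past 2-fold higher after thinning, and Hk1 (0.73) was not. With clusters in place of the gate, 9 of 32 were higher and 0 lower, where 12.2% and 2.73% of all genes were. The median of the members was then above that of all genes, at 0.26 against 0.20 after thinning and 0.45 against 0.21 with clusters. Under the stricter gate 5 of 32 were higher, where 13.3% of all genes were, and without high doublet scores 5 of 32, where 13.7% were. The gated cells thus gave a smaller share of members than of all genes as higher, and the cluster setting a larger one. After thinning, under the stricter gate and without high doublet scores the share was only slightly above that of all genes. These counts are therefore not read as a difference between members and all genes. Activated and granule-rich cells had medians of 2798 and 3477 UMIs. The dissociation-stress list was past 2-fold higher in activated cells for 4 of 12 genes, where 16.7% of all genes were. Atf3 was among the 4 (888 against 259 CPM), and the part of the list in the result was not tested. In other pathways, Adpgk was at 2.83 against 71.3 CPM, G6pdx, which opens the pentose phosphate pathway, at 14.4 against 53.4 CPM, and Tkt, a transketolase of the same pathway, at 69.4 against 176 CPM. Of 20 other hypoxia-response genes with enough UMIs, 4 were higher in activated cells and 0 lower. Among all genes 16.7% were higher and 2.72% lower, so this count is not read as a trait of the list. The 4 were led by Cited2 (124.5 against 32.2 CPM) and Bhlhe40 (463 against 165 CPM). None of the 21 genes of the citric acid cycle list passed 2-fold.

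Epithelial cells were divided by marker lists into 486 Wnt-active (Lgr5, Axin2 and related targets), 130 secretory (Muc2, Tff3 and others), 83 absorptive (Car1, Car4 and others) and 177 regenerative cells (Ly6a, Anxa1, Clu and others, genes of repairing epithelium), leaving 593 unassigned. The set summed to 5893, 5304, 6315 and 9680 CPM in that order. The regenerative cells thus had the highest level of the 4. Their comparison with Wnt-active cells was added after the other epithelial values had been seen. It gave 14 members higher and 0 lower of 32 with enough UMIs, where 9.12% of all genes were higher and 17% were lower. The medians were 0.87 for members and -0.31 for all genes, and 29 members were above 0.

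Adm showed the widest ratio, at 47.0 CPM in regenerative and 3.41 CPM in Wnt-active cells (3.44, interval 3.11 to 4.52). It was 76.6 against 2.04 CPM in library 1 but 13.7 against 3.71 CPM in library 2. Egln3 followed with 133 against 24.98 CPM (2.36), or 172 against 18.4 CPM in library 1 and 83.0 against 25.99 CPM in library 2. Slc16a1 was at 31.7 against 7.29 CPM (1.98) and Slc2a1 at 156 against 44.2 CPM (1.80). Slc2a1 gave 174 against 40.8 CPM in library 1 and 135.5 against 45.1 CPM in library 2, the same order in both. Of the 14 enzymes, 6 were higher, namely Hk2 (168.5 against 45.9 CPM), Pgk1 (559 against 209 CPM), Eno1 (319 against 130.2 CPM), Hk1 (41.0 against 17.4 CPM), Pfkl (94.95 against 45.8 CPM) and Pfkp (86.1 against 41.4 CPM). Pkm (0.85), Ldha (0.89) and Gapdh (0.70) were higher by less than 2-fold. Hif1a was at 240 against 118 CPM (1.01), Hilpda at 65.2 against 23.4 CPM (1.44) and Pfkfb3 at 34.4 against 16.0 CPM (1.06). Ankrd37 was at 25.1 against 9.16 CPM (1.36) over both libraries, but in library 2 it was 3.15 against 8.17 CPM, the opposite order. Of 3 members below 0, only Ddit4 had an interval clear of 0, at 198 against 313 CPM (-0.66).

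**Figure D4:**
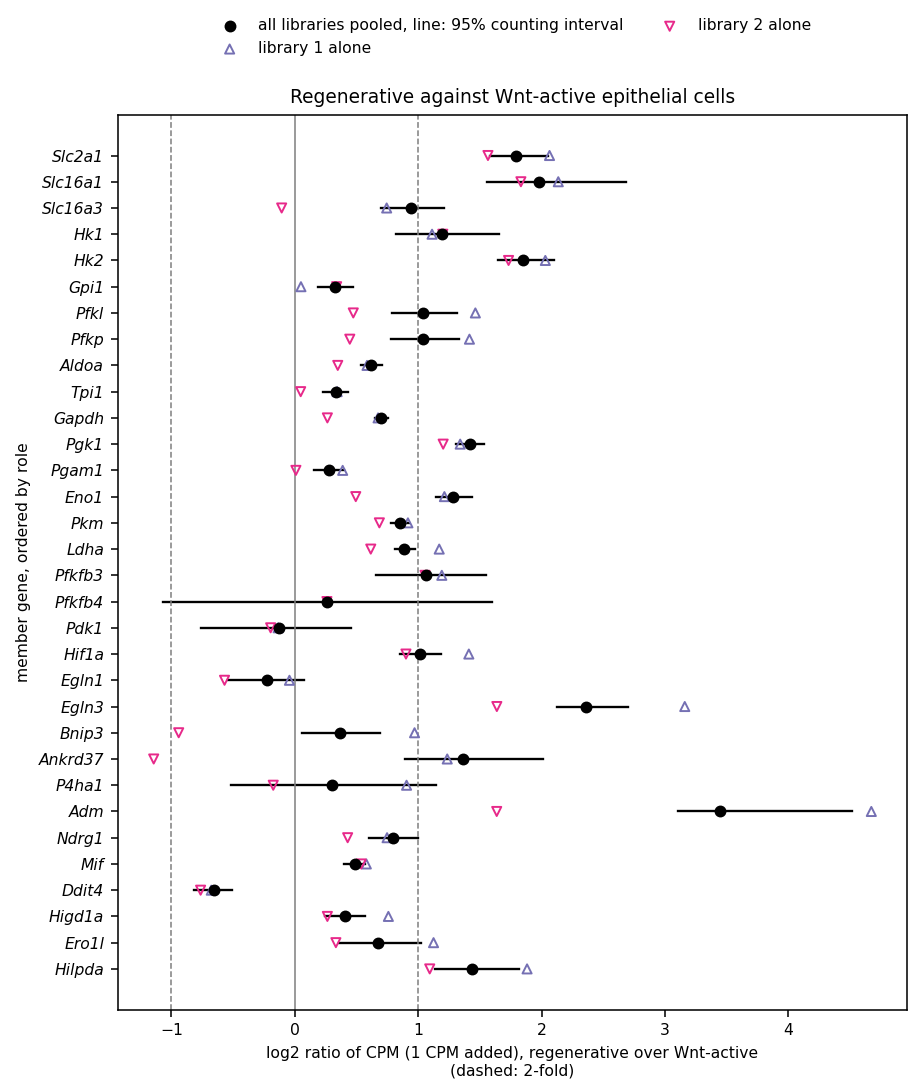
Points are log2 ratios of CPM (1 CPM added) of regenerative over Wnt-active epithelial cells for the 32 genes with at least 10 UMIs, pooled (black, with the 95% counting interval) and in libraries 1 and 2 alone. Library 1 points lie right of library 2 points for most genes, and Ankrd37 falls on opposite sides of 0 in the 2 libraries.

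The 2 libraries did not give the same size of difference. The subsets were drawn unequally, with 74 regenerative and 54 Wnt-active cells in library 1 and 95 and 424 in library 2. Library 1 alone had 16 members higher with a median of 1.11, and library 2 alone 9 higher and 1 lower with a median of 0.44. After thinning to 1000 UMIs, 12 were higher and 1 lower, and with 10 CPM added in place of 1, 8 were higher. Of the 14 named above, 12 kept enough UMIs after thinning, and 11 of these were still past 2-fold. Adm and Slc16a1 had too few UMIs, so their ratios were not checked at matched depth. Pfkl fell to a log2 ratio of 0.71 and Slc2a1 to 1.11, while Egln3 rose to 3.04. Regenerative cells had a median of 5077 UMIs and Wnt-active cells 13275.5. All 5 erythroid markers were higher in Wnt-active cells, at 1539 against 290 CPM in sum, and 6 of 8 genes of the activated neutrophil list were higher in regenerative cells, at 260 against 75.0 CPM. Of the 8 absorptive markers 5 were higher in regenerative cells, at 176 against 8.22 CPM in sum, and absorptive cells had 248 CPM of Hk2, 56.3 CPM of Slc16a1, 61.6 CPM of Hk1 and 68.6 CPM of Egln3. Hspa1a, a heat-shock gene of the dissociation-stress list, was at 164 against 30.9 CPM. The part of these in the result was not tested. Of 26 other hypoxia-response genes with enough UMIs, 6 were higher in regenerative cells and 1 lower, where 9.12% and 17% of all genes were. Among the 6 were Nos2 (114 against 3.72 CPM), Car9 (24.7 against 3.26 CPM) and Cited2 (96.4 against 40.3 CPM). The gluconeogenic phosphatase gene Fbp2 was at 133 against 12.0 CPM, and in the citric acid cycle list 1 of 21 was lower, Idh3a at 109 against 272 CPM.

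Comparisons with absorptive cells rest on 83 cells with a median of 2291 UMIs and were less stable. Regenerative against absorptive cells gave 10 members higher and 0 lower, where 14.4% of all genes were higher and 11.5% lower, with medians of 0.69 and 0.02. The 10 were Slc2a1, Pfkfb3, Pkm, Slc16a3, Bnip3, Ankrd37, Adm, Ndrg1, Ddit4 and Hilpda, led by Ndrg1 at 153 against 10.6 CPM. After thinning, 4 of 26 were higher and 2 lower, where 20.0% of all genes were higher and 14.2% lower. With cells averaged, 4 of 32 were higher, where 26.1% of all genes were, and the medians were 0.16 for members and 0.27 for all genes. Without library 1 the medians were 0.074 and 0.070. The excess of members over all genes was therefore not seen in the counts of the first of these settings, nor in the counts or the median of the second, nor in the median of the third. Slc2a1 went from a log2 ratio of 1.59 to 0.31 and Adm from 1.85 to -0.21, while Ndrg1 stayed at 2.61 and Pfkfb3 at 2.51. Wnt-active against absorptive cells gave 4 members higher and 7 lower of 32, where 27.1% of all genes were higher and 11.6% lower. Higher were Ndrg1 (87.8 against 10.6 CPM), Ddit4 (313 against 79.2 CPM), Slc16a3 and Bnip3, and lower were Hk2 (45.9 against 248 CPM), Slc16a1 (7.29 against 56.3 CPM), Hk1, Adm, Egln3, Pfkp and Pfkfb4. Pfkfb4 rests on 19 against 4 UMIs, and its interval (-2.84 to 0.76) spans 0. Bnip3 changed sign after thinning, to -0.33, and Adm without library 1, to 2.22. Secretory against absorptive cells gave 1 member higher, Ndrg1 (120.5 against 10.6 CPM), and 4 lower (Hk1, Pfkp, Slc16a1 and Egln3) of 31, where 13.6% of all genes were higher and 14.7% lower. The high Hk2 of absorptive cells was seen in libraries 1 and 2, at 229 and 272 CPM, against 42.9 and 44.2 CPM in Wnt-active cells and 108 and 150.2 CPM in secretory cells. Proliferation genes summed to 1001 CPM in absorptive cells, 404 CPM in Wnt-active, 138 CPM in secretory and 580.0 CPM in regenerative cells, and their part in these ratios was not tested.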

How the data were processed

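Per the labels' protocols, polyps were digested with collagenase and sorted before droplet 3′ sequencing. The authors deposited 1 matrix of raw UMI counts. Cell Ranger 3.0.2 and mm10 are named in the submitters' processing notes, without the annotation release.

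Cells were kept from 200 genes and 500 UMIs upward if no more than 20% of UMIs were mitochondrial. Library sizes before filtering ran from 9246770 to 65481274 UMIs. A cell joined a class when at least 40% of that class's markers, and at least 3, were seen with a lead of 20 percentage points over every other class. Erythroid cells were those with at least 25% haemoglobin UMIs, and fibroblast and endothelial cells were joined as stromal. Activated neutrophils had activated-list UMIs at least 4 times their granule-list UMIs, with 1 per 10000 added to each, and granule-rich cells had at least as many granule-list UMIs. Epithelial subsets needed 2 markers of a list at no less than its epithelial mean, and 2 times the relative level of the next list. Cells with at least 3 Chga and Chgb UMIs were left out of the subsets. Doublets were not removed: scrublet in scanpy 1.11.5 marked 10 cells (0.0704%) and so did not work here, and an alternative left out the 625 highest scores. No test was run, since 1 matrix has no replicates. The ratio interval is an exact conditional binomial interval of the counts. The counting code was checked on simulated data.

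The members and lists were chosen with earlier results of these data known. Gate thresholds were chosen with the counts in view. Several settings of the class gate were compared by their cell numbers. The rule for epithelial subsets was changed from detected markers to marker shares after member levels under the first rule had been seen, because too few absorptive cells were left. The erythroid rule, the Chga and Chgb exclusion, the limits of the cluster alternative, the comparison of regenerative with Wnt-active cells and the choice of printed promoters were likewise made after values had been seen. Every member is accounted for, those past 2-fold are named, and from each pathway list at most 4 genes with the widest ratios and at least 50 UMIs are named. Some genes of the marker and pathway lists are not reported here.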

Additional observations from a re-analysis of the deposited data

Results flagged for a closer look

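A second row of the count table carries the symbol Aldoa under another gene identifier (ENSMUSG00000114515) and was outside the main measurement. It held 4 UMIs in kept cells, against 56930 UMIs on the row that was used.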

How the results depend on the processing

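No paired analysis was possible because no result comes from a test, and ratios within single libraries stand in its place. Only single members past 2-fold in the main setting were followed. Over 772 alternative values of these, 612 stayed within the counting interval, 153 moved beyond it and 7 changed sign. Settings that changed only the minimum of UMIs could not alter a ratio. Leaving out a library that held few cells of a subset could alter it little. The 612 therefore include values that could not move or hardly could. The median of C1q-low against C1q-positive cells (0.60) was 0.82 with clusters in place of the gate, 0.47 to 0.79 when 1 library was left out, 0.80 in library 3 alone, where 1 member was lower, and 0.44 in library 4 alone. In neutrophils, 3 members higher became 6 after thinning, 5 under the stricter gate, 9 with clusters, 5 without high doublet scores, 5 in library 2 alone, 6 in library 4 alone and 2 to 5 with 1 library left out, and 1 lower became 0 with clusters and in library 4 alone, and 1 to 2 with 1 library left out. For Wnt-active against absorptive cells, 4 higher became 2 with cells averaged and with 10 CPM added. There Bnip3 turned to -0.33 after thinning and -0.73 with cells averaged, and Adm ranged from -1.60 to 2.22 with 1 library left out, the latter without library 1. For secretory against absorptive cells, 1 higher became 5 at 10% mitochondrial UMIs and 2 with cells averaged, and 4 lower became 8 with cells averaged and 4 to 7 with 1 library left out. For regenerative against absorptive cells, 10 higher became 4 after thinning and 4 with cells averaged, 0 lower became 1 at 10% mitochondrial UMIs, 2 after thinning, 3 with cells averaged, 1 without high doublet scores and 0 to 2 with 1 library left out, and the median of 0.69 became 0.16 with cells averaged and 0.074 to 0.71 with 1 library left out. There Adm turned to -0.21 after thinning and -0.25 with cells averaged, and Bnip3 to -0.54 with cells averaged. For regenerative against Wnt-active cells, 14 higher became 8 with 10 CPM added and 9 in library 2 alone, 0 lower became 1 after thinning, with cells averaged and in library 2 alone, and the median of 0.87 became 0.51 to 1.13 with 1 library left out and 0.44 in library 2 alone, where Ankrd37 was at -1.14. The cause was not tested. Epithelial comparisons were not run with clusters, nor those with absorptive cells without library 2 or within a library, because too few cells were left. Of 34 members, 24 had the same highest class with clusters and 32 at 10% mitochondrial UMIs. No cluster was named stromal or conventional dendritic 1, so the 5 members and 1 member highest there could not keep their class with clusters. Without basophil, stromal and mast cells, added after seeing the data, 21 kept it, since 13 had been highest there.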
